A study of Mus musculus with 10 samples.

Results

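The genes described here are 10 genes of cell cycle arrest and cellular senescence: the cyclin-dependent kinase (CDK) inhibitor genes *Cdkn1a*, *Cdkn1b*, *Cdkn1c*, *Cdkn2a*, *Cdkn2b*, *Cdkn2c* and *Cdkn2d*, together with *Trp53*, *Rb1* and *Lmnb1*. They were taken by name from a table of 55453 gene symbols, and all 10 were found in it. RNA was sequenced from whole aortae of male C57BL/6 mice, 5 young mice aged 14.5 weeks and 5 old mice aged 92.5 weeks, to ask how the arterial transcriptome differs with age. The labels name no engineered allele and no treatment, both ages were sacrificed together, and the fat around the vessel was removed before RNA extraction. Each mouse gave 1 library of poly(A) RNA, so that the spread within a group is the spread between mice.

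A senescent cell has left the cell cycle for good, and 2 protein families hold the brake. The INK4 proteins (p16INK4a from *Cdkn2a*, p15 from *Cdkn2b*, p18 from *Cdkn2c* and p19INK4d from *Cdkn2d*) bind CDK4 and CDK6, while the CIP/KIP proteins (p21 from *Cdkn1a*, p27 from *Cdkn1b* and p57 from *Cdkn1c*) bind cyclin-CDK complexes more widely. Both keep the retinoblastoma protein, encoded by *Rb1*, bound to E2F factors, which silences the genes of DNA replication. p53, encoded by *Trp53*, is a transcription factor that responds to DNA damage and switches on *Cdkn1a*, and lamin B1, encoded by *Lmnb1*, is a filament of the nuclear lamina whose loss is used as a marker of senescence. Most cells of the adult aortic wall are smooth muscle cells that rarely divide.

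The values are read counts per gene, between 19640401 and 22886153 in total per library. Normalized counts are these counts divided by the size factor of the library (0.918 to 1.07), and they are given as mean ± SD over 5 mice. For the 14614 genes with enough counts, the ages were tested against each other by the quasi-likelihood method of edgeR, and a gene is called at a Benjamini-Hochberg adjusted p below 0.05. Fold changes are old over young on the log2 scale, each with its standard error (SE). The labelled tissue was checked with 7 smooth muscle markers, whose summed normalized count was at least 736480 in every library, while that of 7 fibroblast markers, the next highest cell type, was at most 142580.

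Of the 10 genes, *Trp53* and *Cdkn2a* were higher in old aortae, and for these 2 genes no old aorta overlapped with a young one. Among all 14614 tested genes, which do not include *Cdkn2a*, 9.92% had groups that did not overlap. Of the 9 genes of this list among them, 1 had no overlap, *Trp53*. edgeR tested 9 of the 10 genes and called 1, *Trp53*, beside 11.5% of all tested genes that were called, with 6.48% called higher and 4.99% called lower. A count of 1 in 9 is close to the share among all tested genes and is no result about the 9 genes as a group. *Cdkn2a* had too few counts for this test. When every gene with a count was fitted, it was called, beside 5.72% of the 28011 genes in that fit. For the 9 tested genes the median log2 fold change was -0.11, with 3 positive and 6 negative values, and for all tested genes it was 0.00. No gene of the 9 was called lower by edgeR, DESeq2 or limma-voom. At an unadjusted edgeR p below 0.05, 2 were lower and 2 higher. Of all tested genes, 26.7% had such a p in either direction, which is the share to set beside every such count below.

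**Figure D1:**
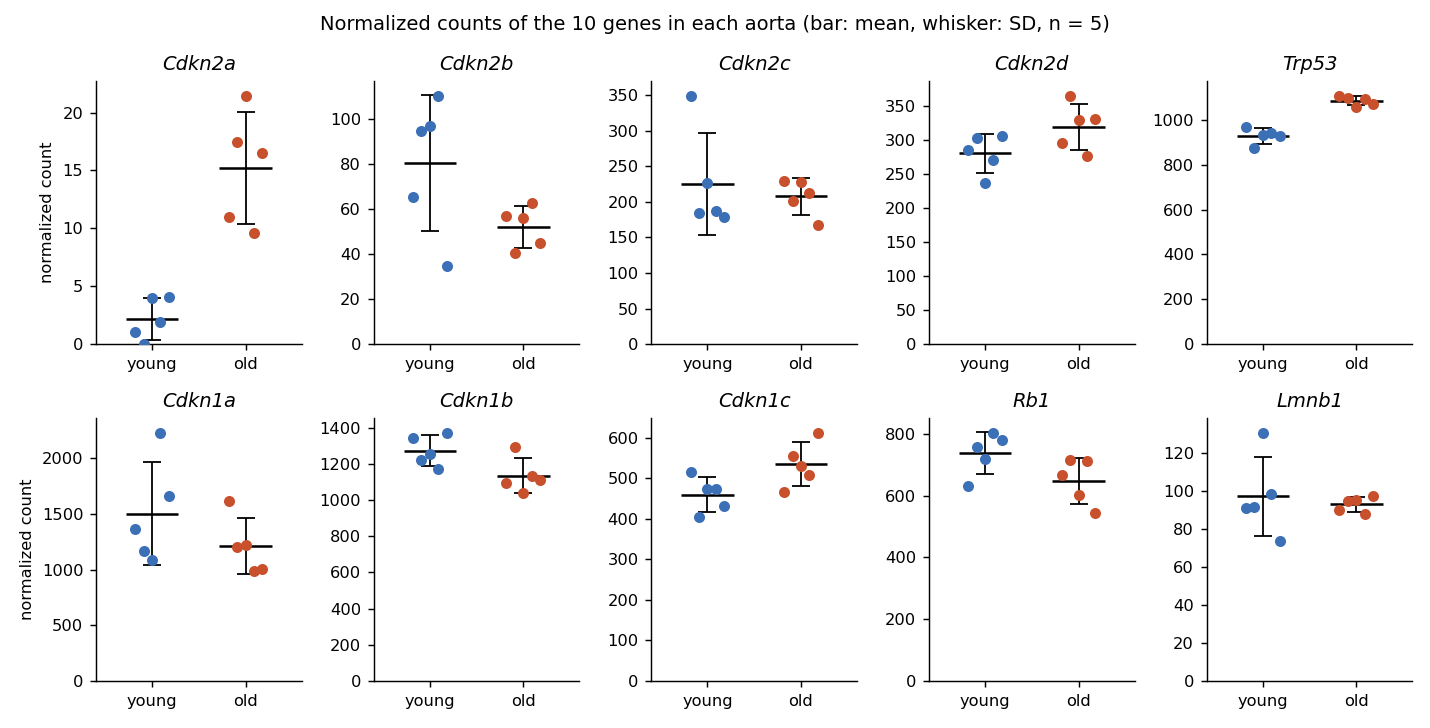
Normalized counts of the 10 genes in each aorta, with young mice in blue and old mice in red, 1 point per mouse. Horizontal bars are means and whiskers are SD over 5 mice; every axis starts at 0. The old and young points are separate for *Cdkn2a* (9.64 to 21.4 against 0 to 4.10) and *Trp53* (1059 to 1106 against 874 to 968) and overlap in the other 8 panels.

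**Figure D2:**
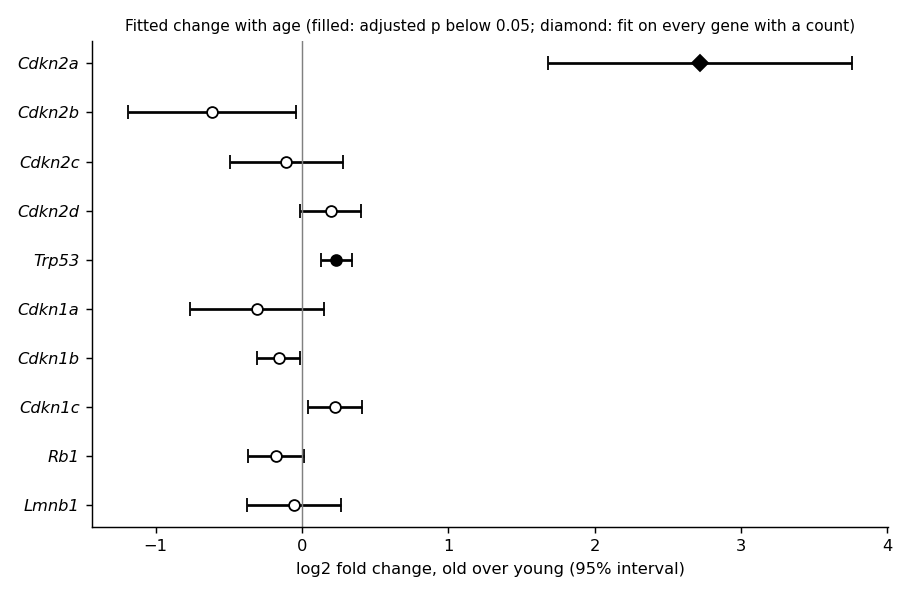
Fitted log2 fold change of each gene, old over young, with its 95% confidence interval. Filled symbols are called at an adjusted p below 0.05, and the diamond for *Cdkn2a* comes from the fit on every gene with a count; its interval runs from 1.68 to 3.76, while the interval of *Trp53* runs from 0.13 to 0.34.

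*Cdkn2a* lies on the minus strand at chr4:89274471-89294653 of GRCm38. It encodes 2 unrelated proteins from 2 start sites that lie 12427 bases apart in RefSeq: p19ARF, which stabilizes p53 by binding MDM2, starts from the upstream site, and p16INK4a starts from the downstream site. *Cdkn2b* is its neighbour on the same strand at chr4:89306299-89311039, and its start site is 16413 bases from the upstream start of *Cdkn2a*. The windows around these 3 starts are shown because the counts below add up both *Cdkn2a* transcripts, which these promoters drive separately. Each window holds 250 bases before and 50 bases after the start, written 5′ to 3′ on the strand of the gene, from RefSeq on GRCm38.p6. Capitals mark GGGCGG on either strand (the GC box, bound by SP1), CACGTG (the E-box) and ACATGT (the core letters of many p53 half-sites).
*Cdkn2a*, p19ARF start, chr4:89294570-89294869: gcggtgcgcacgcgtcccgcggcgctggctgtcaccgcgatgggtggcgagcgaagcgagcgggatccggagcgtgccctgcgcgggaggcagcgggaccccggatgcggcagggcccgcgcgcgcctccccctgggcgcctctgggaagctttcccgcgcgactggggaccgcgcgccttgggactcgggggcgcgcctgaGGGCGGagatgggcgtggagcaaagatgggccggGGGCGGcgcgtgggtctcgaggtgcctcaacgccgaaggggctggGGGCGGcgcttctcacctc
*Cdkn2a*, p16INK4a start, chr4:89282143-89282442: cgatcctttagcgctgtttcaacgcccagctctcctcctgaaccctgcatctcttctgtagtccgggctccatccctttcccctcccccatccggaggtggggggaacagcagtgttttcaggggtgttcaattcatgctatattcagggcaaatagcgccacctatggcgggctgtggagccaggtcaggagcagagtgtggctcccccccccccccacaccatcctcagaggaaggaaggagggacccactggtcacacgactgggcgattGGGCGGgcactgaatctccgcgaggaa
*Cdkn2b* start, chr4:89310983-89311282: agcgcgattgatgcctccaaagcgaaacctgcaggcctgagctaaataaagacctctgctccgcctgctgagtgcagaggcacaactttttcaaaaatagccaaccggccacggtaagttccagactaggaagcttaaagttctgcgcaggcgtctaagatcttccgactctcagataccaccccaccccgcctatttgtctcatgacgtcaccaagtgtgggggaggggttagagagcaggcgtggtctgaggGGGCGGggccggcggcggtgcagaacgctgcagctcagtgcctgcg
The p19ARF window holds 3 GC boxes, and the p16INK4a and *Cdkn2b* windows hold 1 each. A GC box is found in 35.7% of the 32851 windows of this length in RefSeq.

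*Cdkn2a* was nearly silent in young aortae and detected in every old aorta. The 5 young libraries held 1, 0, 4, 2 and 4 reads of *Cdkn2a*, and the 5 old libraries held 11, 16, 23, 10 and 17. In normalized counts these are 1.02, 0, 3.99, 1.93 and 4.10 in young mice and 10.99, 17.4, 21.4, 9.64 and 16.5 in old mice. The lowest old aorta was thus above the highest young one. The study itself had picked *Cdkn2a* on these samples. The mean rose from 2.21 ± 1.81 to 15.2 ± 4.85 (SD, n = 5), a ratio of 6.89 (exact two-sided permutation test, p = 0.007937, below which 2 groups of 5 cannot go). In edgeR's fit on every gene with a count the log2 fold change was 2.72 (SE 0.51, adjusted p = 0.0005), a 6.59-fold difference with a 95% interval from 3.20 to 13.6. DESeq2 on every gene with a count gave an adjusted p of 0.000106. The young level is close to the detection limit, since the count of 0 in young replicate 2 allows up to 3 of the 22202671 counts. The ratio of the means lay between 5.51 and 8.76 when any 1 mouse was left out.

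The counts cannot be divided between p16INK4a and p19ARF. Of the exonic bases of *Cdkn2a*, 49.1% are shared by both annotated transcripts, 23.6% belong to the p16INK4a transcript alone and 27.3% to the p19ARF transcript alone. In RNA of a whole vessel, more cells that carry a transcript and more transcript per cell cannot be told apart, and this holds for every gene below. Macrophage markers were higher in the same old aortae. Of the 10 genes of that list, edgeR called 6 higher, beside 6.48% of all tested genes, and DESeq2 called 9. The median log2 fold change was 0.67, and the summed normalized count was 6811 to 8853 in young and 9254 to 16925 in old mice. The part of macrophages in the *Cdkn2a* result was not tested.

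*Cdkn2b*, which encodes the TGF-beta-responsive inhibitor p15, had a lower mean in old aortae and was not called. The young aortae had 65.4, 94.6, 96.7, 110.1 and 34.8 normalized counts, and the old aortae had 56.96, 40.3, 55.9, 62.7 and 44.7. All 5 old values lie inside the young range, which is set by young replicates 4 and 5. The log2 fold change was -0.62 (SE 0.27), with a 95% interval from -1.19 to -0.04, and edgeR did not call it (adjusted p = 0.157). Without young replicate 5, the lowest young aorta, it was -0.81 and the adjusted p was 0.0228. *Cdkn2a* made up 1.54%, 0%, 3.96%, 1.72% and 10.5% of the summed counts of both genes in young mice and 16.2%, 30.2%, 27.7%, 13.3% and 26.98% in old mice. *Cdkn2b* had more counts than *Cdkn2a* in every aorta of either age, and its level per kilobase of exon was also the higher one in each.

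The remaining INK4 genes were not called. *Cdkn2c*, which encodes p18 and lies on the minus strand at chr4:109660876-109667189, had 348.6, 184, 226, 186 and 179 normalized counts in young and 229.8, 200.5, 227, 212 and 167 in old mice. Young replicate 1 stands above all the other aortae, and the remaining 9 are mixed. The same library also had the highest summed normalized counts of adipocyte markers, 20611 beside 4569 to 11084 in the other 9, and of Schwann cell markers, 1430.2 beside 628 to 1144, and their part in its *Cdkn2c* value was not tested. The log2 fold change was -0.11 (SE 0.18, edgeR adjusted p = 0.755), and without young replicate 1 it turned to 0.10. *Cdkn2d*, which encodes p19INK4d and lies on the minus strand at chr9:21288410-21291407, had 285, 303, 237, 270.4 and 306 normalized counts in young and 296, 365, 329, 277 and 330.6 in old mice. Old replicates 2, 3 and 5 were above every young aorta. The log2 fold change of *Cdkn2d* was 0.20 (SE 0.10), with an interval from -0.01 to 0.40 and an edgeR adjusted p of 0.217.

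In the CIP/KIP family none of the 3 genes was called by edgeR, DESeq2 or limma-voom, and 2 had an unadjusted edgeR p below 0.05, 1 in each direction. Of all tested genes, edgeR called 11.5%, and 26.7% had an unadjusted p below 0.05. *Cdkn1a*, at chr17:29090976-29100727 on the plus strand, encodes p21, the inhibitor that p53 induces. Its young aortae had 1366, 1170.3, 1087, 2232 and 1666 normalized counts and its old aortae had 1615, 1205, 1226, 989 and 1010.1. The spread among the young mice (1504 ± 464, SD, n = 5) was wider than the difference from the old mean (1209 ± 251), and 2 old aortae were below every young one. On the log2 scale the fold change was -0.31 (SE 0.21), with a 95% interval from -0.76 to 0.15 and an edgeR adjusted p of 0.386. On the linear scale this interval runs from 0.588 to 1.11 times the young level. Young replicates 4 and 5, which had the most *Cdkn1a*, also had the highest summed normalized counts of 8 glucocorticoid-responsive genes, 25626 and 26815, while the other 8 libraries lay between 11588 and 21123. Their part in the *Cdkn1a* values was not tested.

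RefSeq gives *Cdkn1a* 2 starts, and the window of the upstream one is shown because its letters hold a pair of p53 cores.
*Cdkn1a*, upstream start, chr17:29090729-29091028: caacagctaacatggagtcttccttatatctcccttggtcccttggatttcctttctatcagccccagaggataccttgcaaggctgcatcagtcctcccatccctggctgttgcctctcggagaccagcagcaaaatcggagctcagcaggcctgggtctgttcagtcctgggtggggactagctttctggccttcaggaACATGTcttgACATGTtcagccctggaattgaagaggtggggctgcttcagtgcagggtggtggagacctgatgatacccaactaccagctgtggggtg
ACATGT occurs 2 times in this window with 4 bases between the copies, and it is found at least once in 5.28% of all windows. The pair at this spacing, which was taken from the *Cdkn1a* window itself, is found in 4 of the 32851 windows. A match of letters does not show that p53 was bound in these aortae.

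*Cdkn1b*, at chr6:134920401-134925513 on the plus strand, encodes p27, a brake that is abundant in resting cells. The young aortae had 1346, 1224, 1258, 1170.4 and 1374 normalized counts, and the old aortae had 1094, 1297, 1041, 1133 and 1111. Among the old aortae 4 of 5 were below every young one, and old replicate 2 lay inside the young range. Its log2 fold change was -0.16 (SE 0.07) and edgeR did not call it (adjusted p = 0.158). Without old replicate 2 it was -0.22 and the adjusted p was 0.0440.

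*Cdkn1c*, at chr7:143458339-143461050 on the minus strand, encodes p57 and is an imprinted gene expressed from the maternal copy. It had 515, 405.5, 473, 474 and 430.3 normalized counts in young and 467, 556, 530.3, 509 and 613 in old mice. Old replicates 2, 3 and 5 were above every young aorta. The gene's log2 fold change was 0.23 (SE 0.09) and the 95% interval ran from 0.04 to 0.41, but the adjusted p of edgeR was 0.109 and no alternative fit called the gene. An antisense gene, *Gm44732*, covers 30.65% of the exonic bases of *Cdkn1c*. The library kit keeps the strand, but the strand setting of the counting is not given in the sources used here. How reads in the bases shared by these 2 genes were counted is therefore not known.

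*Trp53*, at chr11:69580359-69591873 on the plus strand, had the smallest coefficient of variation of the 10 genes at both ages. The young aortae had 968, 874, 930.2, 939.6 and 927 normalized counts, and the old aortae had 1106, 1096, 1059, 1092 and 1069.5. Every old aorta was above every young one, and the coefficients of variation were 3.66% in young and 1.82% in old mice. The means were 928 ± 33.97 and 1085 ± 19.8 (SD, n = 5). *Trp53* had a log2 fold change of 0.23 (SE 0.05, edgeR adjusted p = 0.00857), a difference of 17.5% with a 95% interval on the fold from 1.09 to 1.26. The gene was called in all 19 alternative fits without the replicate number, with adjusted p-values from 0.000366 to 0.0334, and with that number as a block (0.0428). A processed pseudogene, *Trp53-ps*, shares 3.64% of the 50-base windows of its transcripts. The promoter window of *Trp53* is shown because it is the 1 gene of the 9 tested that edgeR called.
*Trp53* start, chr11:69580109-69580408: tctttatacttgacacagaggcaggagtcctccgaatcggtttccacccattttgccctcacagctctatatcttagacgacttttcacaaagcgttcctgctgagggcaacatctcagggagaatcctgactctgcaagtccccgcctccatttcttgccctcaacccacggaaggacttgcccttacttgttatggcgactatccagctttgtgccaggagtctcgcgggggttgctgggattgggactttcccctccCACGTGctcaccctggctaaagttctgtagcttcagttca
It holds 1 E-box, CACGTG, which 7.15% of all windows have, and 1 copy of TATAAA, searched on both strands and left in lower case, which 13.6% have. No GC box letters are in this window.

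Among 15 tested genes that regulate p53, edgeR called 1 lower and 0 higher, beside 4.99% and 6.48% of all tested genes. The median log2 fold change of these regulators was -0.03. DESeq2 called 3 lower and limma-voom 1, and 3 were lower at an unadjusted p below 0.05. No regulator was higher at an unadjusted p below 0.05 or by DESeq2 or limma-voom. *Mdm2*, the ubiquitin ligase that degrades p53 and is itself induced by it, averaged 1138 ± 94.8 normalized counts in young mice and 1163 ± 101 in the old, with a log2 fold change of 0.04 (SE 0.07). The called gene was *Trp53bp1*, which encodes the DNA break repair protein 53BP1. It fell from 1488 ± 73.3 to 1118 ± 137 normalized counts, with no overlap between the ages (log2 fold change -0.41, SE 0.08, edgeR adjusted p = 0.00519).

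Among p53 target genes, 28 of the 30 listed were tested, with a median log2 fold change of 0.13. edgeR called 4 higher and 0 lower, beside 6.48% and 4.99% of all tested genes. DESeq2 called 1 lower, limma-voom 0, and 1 was lower at an unadjusted p below 0.05. *Psrc1*, a microtubule-associated gene that p53 induces, had 23.5, 33.2, 26.9, 35.7 and 30.7 normalized counts in young and 76.9, 66.5, 88.5, 49.2 and 83.6 in old mice. Every old aorta was above every young one, and the log2 fold change was 1.29 (SE 0.20, edgeR adjusted p = 0.00126). *Tigar*, which lowers glycolytic flux, rose from 283 ± 19.3 to 402 ± 30.4 normalized counts, by 0.51 on the log2 scale (SE 0.08, edgeR adjusted p = 0.00109). *Eda2r*, an ectodysplasin receptor of the TNF receptor family, rose by 0.59 (SE 0.15, adjusted p = 0.0231). Its highest young value, 158.8 in young replicate 5, was above the lowest old value, and without young replicate 2 its adjusted p was 0.0573. *Ccng1*, which encodes cyclin G1, rose by 0.20 (SE 0.06, adjusted p = 0.0463). That call was the least stable of the 4: it held in 8 of 19 alternatives and was lost without any 1 mouse except young replicate 3, with adjusted p-values up to 0.125. For *Cdkn1a*, the best known target of p53, the values are those given above. They are RNA counts and do not measure protein. By western blot the paper reports higher p21 and p53 protein in old aortae.

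**Figure D3:**
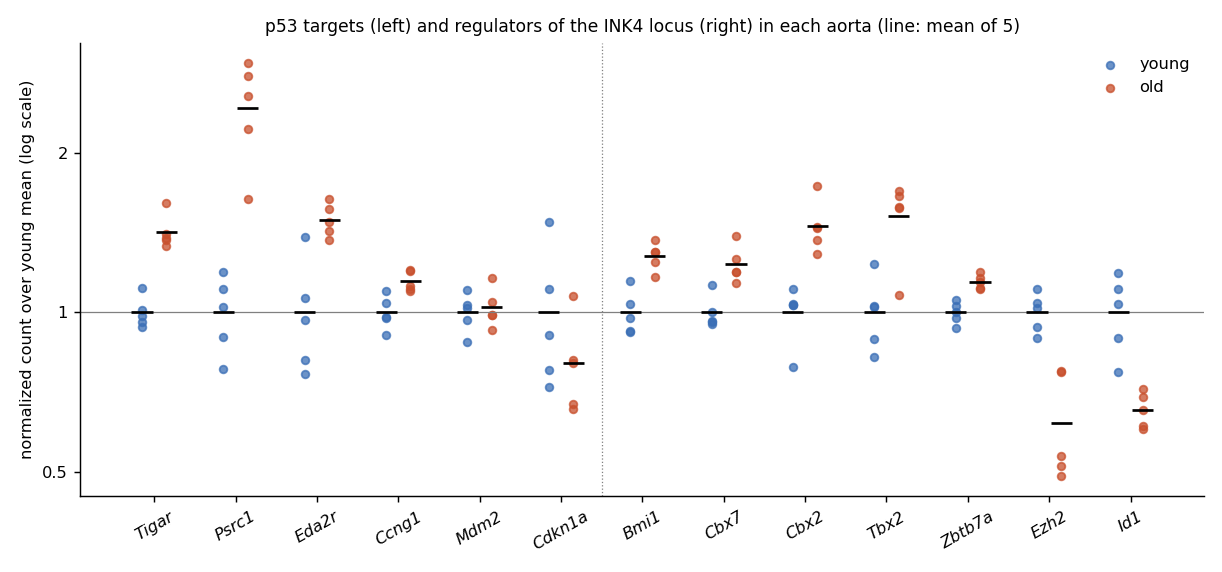
Normalized count of single genes in each aorta divided by the mean of the young aortae, on a log axis, with 1 point per mouse and a line at the mean of 5. The 4 called p53 targets, *Mdm2* and *Cdkn1a* are on the left and the 7 called regulators of the INK4 locus on the right; the means of *Psrc1* differ by a ratio of 2.43, while the old mean of *Cdkn1a* is 0.804 of the young mean.

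*Rb1*, at chr14:73183673-73325822 on the minus strand, had 631, 759, 719, 804 and 779.7 normalized counts in young and 669, 715, 604, 712.5 and 543.5 in old mice. Old replicates 3 and 5 were below every young aorta. For *Rb1* the log2 fold change was -0.18 (SE 0.09), the 95% interval ran from -0.37 to 0.01 and the edgeR adjusted p was 0.221. The genes *Rcbtb2* and *Lpar6* overlap 8.11% and 6.78% of its exonic bases on the opposite strand. Of 17 tested genes of the Rb family, the E2F factors and the DREAM complex, which represses cell cycle genes in resting cells, none was called by edgeR, DESeq2 or limma-voom. In edgeR 1 was higher and 1 lower at an unadjusted p below 0.05, and the median log2 fold change was 0.07. Among all tested genes edgeR called 11.5%, and 26.7% had an unadjusted p below 0.05. *Rbl2*, which encodes the Rb relative p130 of resting cells, had a log2 fold change of 0.10 (SE 0.05, adjusted p = 0.235).

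The kinases that the inhibitors bind were not called either. The list of cyclins and CDKs also holds *Cdkn3*, *Cks1b* and *Cks2*, which are neither. Of its 15 tested genes, 1 was called higher and 1 lower, beside 6.48% and 4.99% of all tested genes. *Cdk4* (log2 fold change 0.08), *Cdk6* (-0.36) and *Cdk2* (0.02), the targets of the INK4 and CIP/KIP proteins, had edgeR adjusted p-values of 0.418, 0.239 and 0.920. The 2 called genes were D-type cyclins, which activate CDK4 and CDK6, and they went in opposite directions. *Ccnd2* fell from 7970 ± 325 to 6175 ± 309 normalized counts with no overlap between the ages (log2 fold change -0.36, SE 0.06, edgeR adjusted p = 0.00140). *Ccnd1* rose from 1053 ± 147 to 1436 ± 251 (log2 fold change 0.46, SE 0.12, edgeR adjusted p = 0.0347), with overlap, and this call held in 10 of 19 alternatives. It was lost without any 1 mouse except young replicate 1 and old replicate 2, with adjusted p-values up to 0.0864.

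Among genes that E2F factors switch on in dividing cells, 2 of 18 tested were called higher, beside 6.48% of all tested genes. No gene of this list was lower by edgeR at an unadjusted p below 0.05 or by DESeq2 or limma-voom. The log2 fold change was positive for 16, with a median of 0.22 for the list and 0.00 for all tested genes. DESeq2 called 3 higher and limma-voom 2. *Mcm5* and *Mcm2* encode subunits of the replicative helicase. *Mcm5* rose from 96.7 ± 10.6 to 134 ± 10.8 normalized counts (log2 fold change 0.48, SE 0.12, edgeR adjusted p = 0.0187), and without young replicate 2 its adjusted p was 0.0519. *Mcm2* rose by 0.35 (SE 0.11, adjusted p = 0.0470), a call that held in 7 of 19 alternatives and was lost without any 1 mouse except young replicates 1 and 3. *Mki67*, the usual marker of cycling cells, averaged 125 ± 24.5 at the younger age and 135 ± 31.3 normalized counts at the older (log2 fold change 0.11, SE 0.18, adjusted p = 0.745).

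*Lmnb1* was not called, and its means were 97.1 ± 20.8 and 93.0 ± 3.95 normalized counts (SD, n = 5). The young aortae had 91.0, 91.6, 130.6, 98.5 and 73.8 normalized counts, and the old aortae had 89.9, 94.8, 95.1, 87.7 and 97.2. All old values lay within the young range, and young replicate 3 was the highest of the 10. Lamin B1 transcripts had a log2 fold change of -0.06 (SE 0.15), and the 95% interval from -0.38 to 0.27 corresponds to 0.770 to 1.20 of the young level (edgeR adjusted p = 0.854). Without young replicate 3 the log2 fold change turned to 0.08. The other lamins were not called either: *Lmna*, the lamin A and C gene, had a log2 fold change of 0.09 (SE 0.06, adjusted p = 0.358), and *Lmnb2*, the lamin B2 gene, had 0.17 (SE 0.13, adjusted p = 0.423). Of 16 tested genes of the nuclear lamina and envelope, edgeR called only the lamin B receptor gene *Lbr*, beside 11.5% of all tested genes. DESeq2 called 2 of the 16 lower and 1 higher. *Lbr* fell from 832 ± 56.5 to 656 ± 91.7 normalized counts without overlap (log2 fold change -0.34, SE 0.09, adjusted p = 0.0333), in 14 of 19 alternatives. Leaving out young replicate 2, 3 or 4, or old replicate 4 or 5, took the adjusted p of *Lbr* to between 0.0647 and 0.0856.

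Genes that repress or activate the INK4 locus moved in both directions. Of 25 tested, 5 were called higher and 2 lower, beside 6.48% and 4.99% of all tested genes. The median log2 fold change of the list was 0.01. Polycomb proteins hold *Cdkn2a* and *Cdkn2b* silent, and 2 arms of that system changed in opposite directions. Of the first complex, *Bmi1* had 669.6, 672, 834, 712 and 757 normalized counts in young and 905, 849, 947, 999 and 949 in old mice, a rise of 0.36 on the log2 scale (SE 0.07, edgeR adjusted p = 0.00648). *Cbx7* and *Cbx2*, which encode subunits that bind the repressive histone mark, rose by 0.31 (SE 0.07, adjusted p = 0.0101) and 0.55 (SE 0.14, adjusted p = 0.0249). *Ezh2*, the methyltransferase of the second complex, had 112, 106, 104, 90.8 and 95.3 normalized counts in young mice. In old mice it had 49.97, 54.5, 78.3, 52.1 and 78.8, so that every old aorta was below every young one. Its log2 fold change was -0.68 (SE 0.16, edgeR adjusted p = 0.0163).

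Outside the Polycomb system, *Id1*, an inhibitor of the ETS factors that activate the p16INK4a promoter, fell from 1742 ± 291 to 1143 ± 86.4 normalized counts without overlap (log2 fold change -0.60, SE 0.10, edgeR adjusted p = 0.00282). *Tbx2* and *Zbtb7a* encode factors known to repress p19ARF. *Tbx2* rose by 0.61 (SE 0.13, adjusted p = 0.0104), with old replicate 3 inside the young range, and *Zbtb7a* rose by 0.20 (SE 0.05, adjusted p = 0.0216). The calls of *Cbx2* and *Zbtb7a* held in 15 of 19 alternatives each. *Cbx2* lost its call without young replicate 2 or 4 or old replicate 5, with adjusted p-values up to 0.0694, and *Zbtb7a* without young replicate 4 or old replicate 1 or 5, with values up to 0.0534.

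Of 17 tested regulators of p21, p27 and p57, 1 was called higher and 3 lower, beside 6.48% and 4.99% of all tested genes. The median log2 fold change of these regulators was -0.06. *Foxo1*, a transcription factor that activates *Cdkn1b*, fell from 1846 ± 123 to 1390.1 ± 75.02 normalized counts (log2 fold change -0.40, SE 0.06, edgeR adjusted p = 0.00109). *Plagl1*, an imprinted zinc finger gene that induces cell cycle arrest, fell from 164 ± 13.3 to 102 ± 22.6 (log2 fold change -0.68, SE 0.15, edgeR adjusted p = 0.0107). *Klf6*, which activates *Cdkn1a*, fell by 0.43 on the log2 scale (SE 0.11, adjusted p = 0.0281), and its adjusted p was 0.0566 to 0.0743 without young replicate 3, 4 or 5. *Tgfb1*, the cytokine that induces *Cdkn2b* and *Cdkn1a*, rose by 0.31 (SE 0.07, adjusted p = 0.0148). Neither of these targets of *Tgfb1* was called higher.

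Of 30 listed factors that senescent cells secrete, 21 passed the low-count filter, which a gene can pass through the group where it is high, so the counts and the median below cover those genes alone. Beside 11.5% called among all tested genes, 7 were called higher (*Mmp3*, *Ccl8*, *Fgf2*, *Ccl7*, *Tgfb1*, *Ccl2* and *Hgf*) and 1 lower (*Vegfa*), and the median log2 fold change was 0.31. *Mmp3*, the protease stromelysin 1, rose from 3613 ± 556 to 7690 ± 1297 normalized counts (log2 fold change 1.10, SE 0.13, edgeR adjusted p = 0.000251). *Fgf2*, a growth factor of vascular cells, rose by 0.62 (SE 0.10, adjusted p = 0.00183), and *Vegfa*, the endothelial growth factor, fell by 0.45 (SE 0.10, adjusted p = 0.0133). The chemokines *Ccl8* and *Ccl7*, which attract monocytes, rose by 2.94 (SE 0.34, adjusted p = 0.000321) and 1.91 (SE 0.42, adjusted p = 0.0110). The study had already picked *Ccl2*, *Ccl7*, *Ccl8* and *Mmp3* on these samples and lists *Vegfa* among its lower genes, so they are not independent evidence for the direction of the list. Macrophages also make several of these factors, and the summed macrophage markers given above were also higher in old aortae. The part of macrophages in these values was not tested. Over all 9 lists together, 28 of 171 tested genes were called, or 16.4%, beside 11.5% of all tested genes. Of these, 19 were higher and 9 lower, beside 6.48% and 4.99% of all tested genes, and the median log2 fold change was 0.04. The totals include the secreted factors, so the limits given for that list apply to them too.

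**Figure D4:**
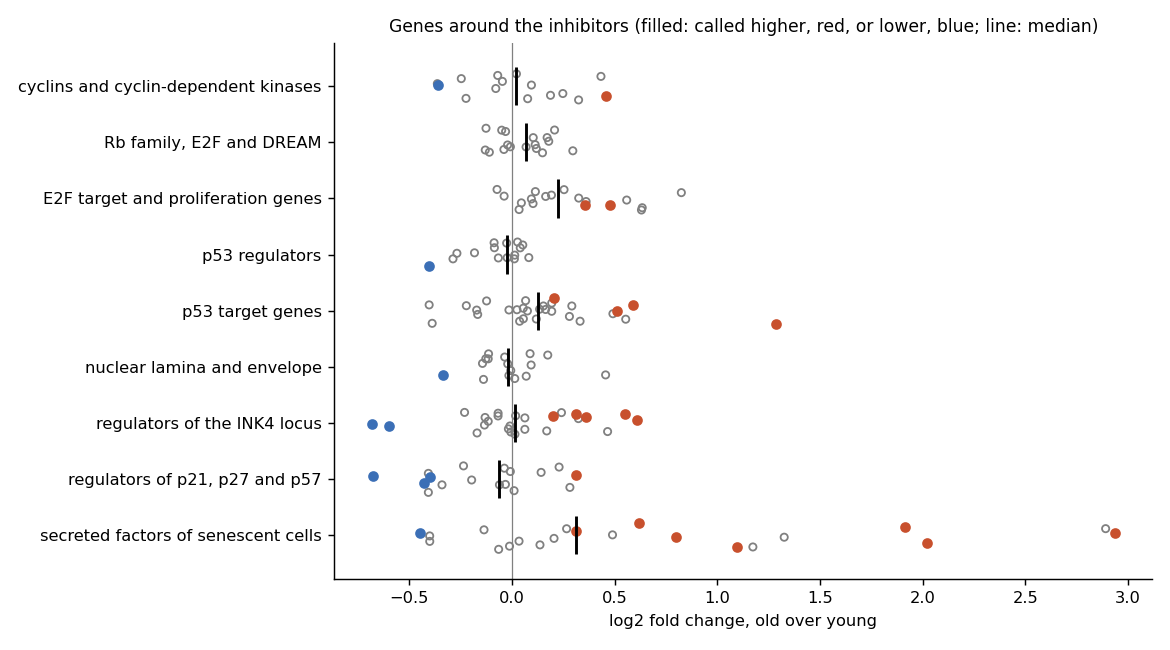
Log2 fold change, old over young, of every tested gene of the 9 lists, with 1 circle per gene and a vertical line at the median of each list. Filled circles are called by edgeR, red when higher and blue when lower; the medians run from -0.06 for the regulators of p21, p27 and p57 to 0.31 for the secreted factors, and no gene of the Rb, E2F and DREAM list is filled.

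Levels of different genes can be compared only per length, so the normalized counts were divided by the exonic length in kilobases. This length takes the exons of all annotated transcripts of a gene together. For *Trp53* it is 4045 bases, while its transcripts with 11 exons have 1771 to 1867 bases. The order under other lengths was not tested. On this scale *Cdkn1a* was the most abundant of the 10 genes at both ages, with a mean of 423 in young and 340.3 in old mice, and *Cdkn2a* the least, with 1.88 and 12.975. The young order between them was *Cdkn1b* (280.0), *Trp53* (229), *Cdkn1c* (225), *Cdkn2d* (178), *Rb1* (123), *Cdkn2c* (83.8), *Cdkn2b* (57.8) and *Lmnb1* (32.8). Neighbours in this order whose young ranges overlapped were *Trp53* and *Cdkn1c*, *Rb1* and *Cdkn2c*, *Cdkn2c* and *Cdkn2b*, and *Cdkn2b* and *Lmnb1*. In old aortae *Trp53* (268) and *Cdkn1c* (262) came before *Cdkn1b* (249), but the ranges of *Trp53* and *Cdkn1c*, *Cdkn1c* and *Cdkn1b*, *Cdkn1b* and *Cdkn2d*, and *Cdkn2b* and *Lmnb1* overlapped. The levels of *Cdkn2a* in old mice stayed below those of *Lmnb1* in every old aorta.

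**Figure D5:**
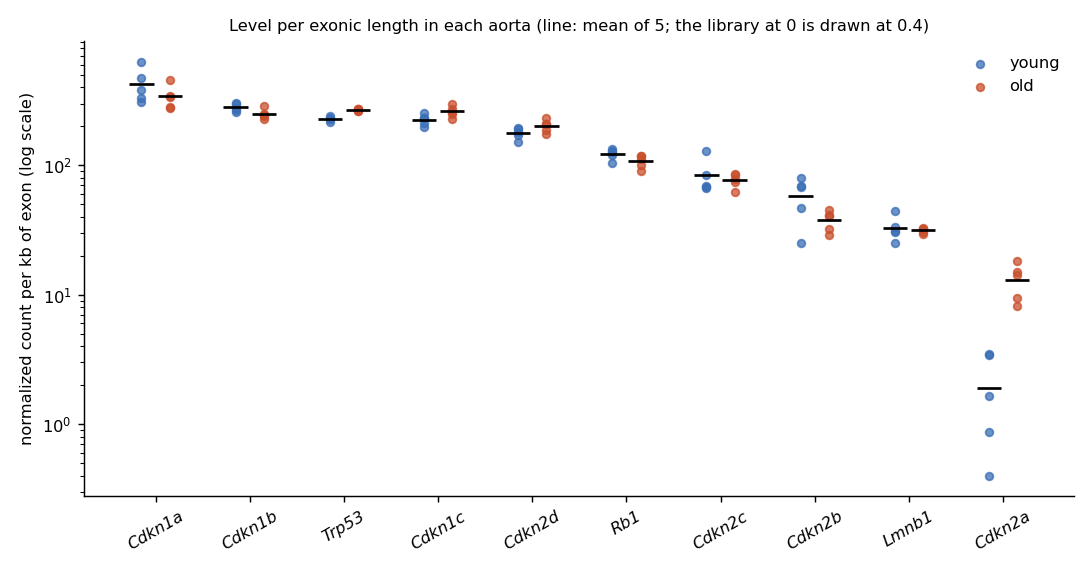
Level of each gene per kilobase of exon in each aorta, on a log axis, with genes in the order of their young means, young mice in blue, old mice in red and a line at the mean of 5. The young library without a *Cdkn2a* read is drawn at the bottom of the axis. The mean of *Cdkn2a* is 1.88 in young and 12.975 in old mice, while the group means of the other 9 genes lie between 31.4 and 423.

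Summed over each family on the per-kilobase scale, the ranges of the inhibitors overlapped between the ages. The INK4 family had 322 ± 25.7 in young and 330.6 ± 19.7 in old mice, and the CIP/KIP family had 929 ± 131 and 852 ± 58.4 (SD, n = 5). CIP/KIP transcripts made up 74.1% ± 3.13 of the inhibitor sum in young and 72.0% ± 1.35 in old mice. Within the INK4 family, *Cdkn2a* took 0.613% ± 0.528 in young and 3.89% ± 1.07 in old mice. The ranges of this share did not overlap, as its counts already show, and the other 3 genes made up the rest. The share of *Cdkn1c* among the 7 inhibitors was 18.1% ± 1.93 in young and 22.3% ± 2.81 in old mice, and 4 old aortae were above every young one.

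Marker lists of the cell types in or around the vessel moved as follows. For comparison, edgeR called 6.48% of all tested genes higher and 4.99% lower. Of 7 smooth muscle markers 1 was called higher (*Smtn*), with a median log2 fold change of -0.07. All 7 endothelial markers had a negative log2 fold change, with a median of -0.60. edgeR called *Tek* lower, DESeq2 called 3 lower and limma-voom 2. At an unadjusted edgeR p below 0.05, 4 were lower. The summed normalized count of the 7 was 19283 to 33615 in young and 9933 to 23238 in old mice. Among 7 fibroblast markers 1 was called higher (*Lum*) and 2 lower (*Col1a1* and *Pi16*), with a median of -0.07. Most T cell markers and part of the B cell and striated muscle markers had too few counts for the filter, so these lists are given by their summed normalized counts over all markers. The sums were 16.1 to 77.7 in young and 50.97 to 229 in old mice for T cells, 225 to 755 and 528 to 2490.3 for B cells, and 445 to 1430 and 704 to 1762 for striated muscle, with overlapping ranges in each list. edgeR called no adipocyte, Schwann cell or erythrocyte marker (medians -0.83, 0.27 and 0.00), with 3, 1 and 0 at an unadjusted p below 0.05; DESeq2 called 1 adipocyte marker lower and limma-voom called none, and no mesothelial marker had enough counts to be tested. Of 12 immediate early genes, which respond to handling of the tissue, 1 was called higher (*Junb*) and 2 lower (*Atf3* and *Fosb*), with a median of -0.32, and of 8 glucocorticoid-responsive genes 1 was called lower (*Errfi1*), with a median of -0.27. Every marker had at least 1 read in the 10 libraries together. The part of these cell types and responses in the values of the 10 genes was not tested.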

How the data were processed

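RNA-seq libraries of 10 aortae, 5 per age, were grouped by the age in the labels. Per the labels and the paper, the authors filtered reads with fastp 0.20.0, aligned them to GRCm38 with STAR 2.7.0f and counted them per gene with featureCounts of Subread 1.6.4. The deposited counts are whole reads per gene symbol without normalization. The strand setting of the counting is not given in the sources used here. From these counts, genes were filtered with filterByExpr (14614 of 28011 kept), scaled by TMM and tested with edgeR 4.0.16 (robust quasi-likelihood F test, no covariates, Benjamini-Hochberg adjustment) under R 4.3.3. Normalized counts used the size factors of DESeq2 1.42.0. The value of *Cdkn2a*, which the filter removed, was compared with an exact two-sided permutation test. Total counts between 19640401 and 22886153 set the precision of low genes, and the limit of 3 counts covers counting error only.

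The genes, the 9 pathway lists (186 genes, of which 185 are in the table and 171 were tested) and the 13 marker lists were chosen with earlier results of these data known. Named are all 10 genes, up to 5 called genes per direction and list in order of p, and *Cdk4*, *Cdk6*, *Ccnd1*, *Cdk2*, *Mdm2*, *Lmna*, *Lmnb2*, *Bmi1*, *Cbx7*, *Ezh2*, *Mki67* and *Rbl2*. *Ccl2*, *Hgf* and the called markers were named after their values were seen. Positions, overlaps and exonic lengths come from GENCODE M21, and the authors used another release of the same build. Promoter windows of 7 of the 10 genes were matched by symbol in RefSeq, and no overlapping matches of different motifs were marked. The alternatives were DESeq2, limma-voom (limma 3.58.1), other scalings and filters, offsets for GC content and length, the replicate number as a block, a stricter threshold (0.01) and fits that left out 1 mouse at a time.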

Additional observations from a re-analysis of the deposited data

Results flagged for a closer look

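In 8 groups of 5 aortae, 1 library lay far from the other 4 by Dixon's criterion at the 95% level. Among the 20 groups of the 10 genes, *Cdkn2c* was singled out in young replicate 1, with 348.6 normalized counts while the other young aortae had 179 to 226. Of 68 groups of pathway genes tested, 7 had such a library. *Cdk6* had 808 normalized counts in old replicate 1 and 489 to 577 in the others. For *Cbx7*, young replicate 1 had 1639.8 while the other young aortae had 1389 to 1461. *Ccnd2* was lowest in old replicate 2, with 5627 beside 6259.8 to 6358. *Tigar* was highest in old replicate 5, with 455 beside 378 to 398. *Tbx2* and *Klf6* were both lowest in old replicate 3, with 342 beside 498 to 536 and with 3801 beside 5125 to 5405. *Cbx2* was lowest in young replicate 4, with 48.3 normalized counts beside 63.4 to 67.8. Chance flags about 1 in 20 groups.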

How the results depend on the processing

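*Trp53* was called and *Cdkn1a*, *Cdkn1c*, *Cdkn2c*, *Cdkn2d*, *Rb1* and *Lmnb1* were not called in every alternative fit. The number of the 10 genes called was 1 in the reported fit and 2 in both edgeR and DESeq2 on every gene with a count, since these fits also tested *Cdkn2a*. It ranged from 1 to 3 when 1 mouse was left out. *Cdkn2a* is counted in this range only where it passed the low-count filter, through its old counts, which says nothing about its stability. *Cdkn2b* was called without young replicate 5 (-0.81), and *Cdkn1b* without old replicate 2 (-0.22). Without 1 mouse, the log2 fold change of *Cdkn2c* ranged from -0.18 to 0.10, reversed only without young replicate 1, and that of *Lmnb1* from -0.14 to 0.075, reversed only without young replicate 3, with neither called. The difference in mean normalized count of *Cdkn2a* ranged from 11.4 to 14.4 without 1 mouse. Fits on every gene with a count without each mouse in turn, added after seeing the data, called *Cdkn2a* with log2 fold changes from 2.42 to 3.04. Over all genes, 1676 were called, 658 at an adjusted p below 0.01, and 1132 to 2367 without 1 mouse. Of the pathway genes 28 were called, 10 at an adjusted p below 0.01, and 19 to 34 without 1 mouse. Of the 26 called pathway genes named, 17 were called in all 19 alternatives without the replicate block. Deviations of same-numbered libraries correlated between -0.298 and 0.133, which cannot show whether the replicate numbers pair the mice. With a replicate block 1 of the 10 genes, 25 pathway genes and 1261 genes in all were called. Low counts limited *Cdkn2a*, and the young level cannot be told from 0 in 1 of 5 mice.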
